A study of Saccharomyces cerevisiae with 3 samples.

Results

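The 10 genes described here encode enzymes and regulatory subunits that make or break down trehalose and glycogen in baker's yeast. They were found on the arrays by gene symbol, from a list drawn up with earlier results of these data known. All 10 were present, each with 2 spots, among 5539 named genes. The gene list covers the trehalose synthase complex (TPS1, TPS2, TPS3 and TSL1), the glycogen synthases (GSY1 and GSY2), the phosphoglucomutase gene PGM2, the trehalases (NTH1 and ATH1) and glycogen phosphorylase (GPH1). Every array carried a yap1 deletion mutant in the Cy3 channel and the wild type in the Cy5 channel, and both strains had been stressed with 0.2 mM As(III), arsenite, for 1 h. The deletion removes Yap1, a transcription factor of oxidative and metal stress. No unstressed sample was analysed here, so the values say nothing of the response to arsenite itself. The labels number the arrays 1 to 3 and do not tell whether each had its own culture. The p-values therefore cover the variation among the 3 arrays alone, and this variation may be technical.

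Trehalose is a sugar that yeast builds up under stress, where it protects proteins and membranes, and glycogen is its branched glucose store. Both are built from UDP-glucose, which is made from glucose phosphate through phosphoglucomutase and a uridylyltransferase. Tps1 joins the sugars into trehalose phosphate, Tps2 removes the phosphate, and Tps3 and Tsl1 hold and regulate the complex. Trehalases cut trehalose back to glucose, and phosphorylase with a debranching enzyme takes glycogen apart. Several of these genes are targets of the general stress factors Msn2 and Msn4, and the enzymes for making and breaking down a reserve are often induced together in stressed yeast.

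The values are log ratios of the channels of an array on the deposited scale, averaged over the spots of a gene, minus the median over named genes of that array. These medians were −2.11, −2.30 and −1.59 on replicates 1, 2 and 3. The sources used here name neither the numerator of the ratio nor the base of its logarithm. A gene is therefore placed on the high side or the low side of the array median, and neither a fold change nor the strain with more transcript is given. YAP1, the deleted gene, lay at −1.43, −0.22 and −0.74 on the 3 arrays (mean −0.80 ± 0.61, SD, n = 3, limma adjusted p = 0.0323), close to the median on replicate 2, which did not settle the direction. Its repeated spots differed on every array, at −2.02 and −0.85, −0.68 and 0.24, and −1.29 and −0.20. The SD between these spots averaged 0.75, against a median of 0.274 over all genes. The mutant was in Cy3 on every array, so dye and strain cannot be told apart for any gene.

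Of the 10 genes, ATH1 and TPS1 lay on the high side and TSL1 on the low side past a limma adjusted p of 0.05, and 7 did not pass. That is 3 of 10, where 28.5% of all 5539 genes passed (16.0% high and 12.5% low). A share of 30% is close to this background, so the count is no result about trehalose and glycogen genes. The median of the 10 means was −0.01, against −0.02 over all genes, and 5 means lay above 0 and 5 below it. Its members spread from −0.73 (TSL1) to 1.76 (ATH1). The SD between arrays had a median of 0.35 over the 10 genes and 0.36 over all genes.

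**Figure D1:**
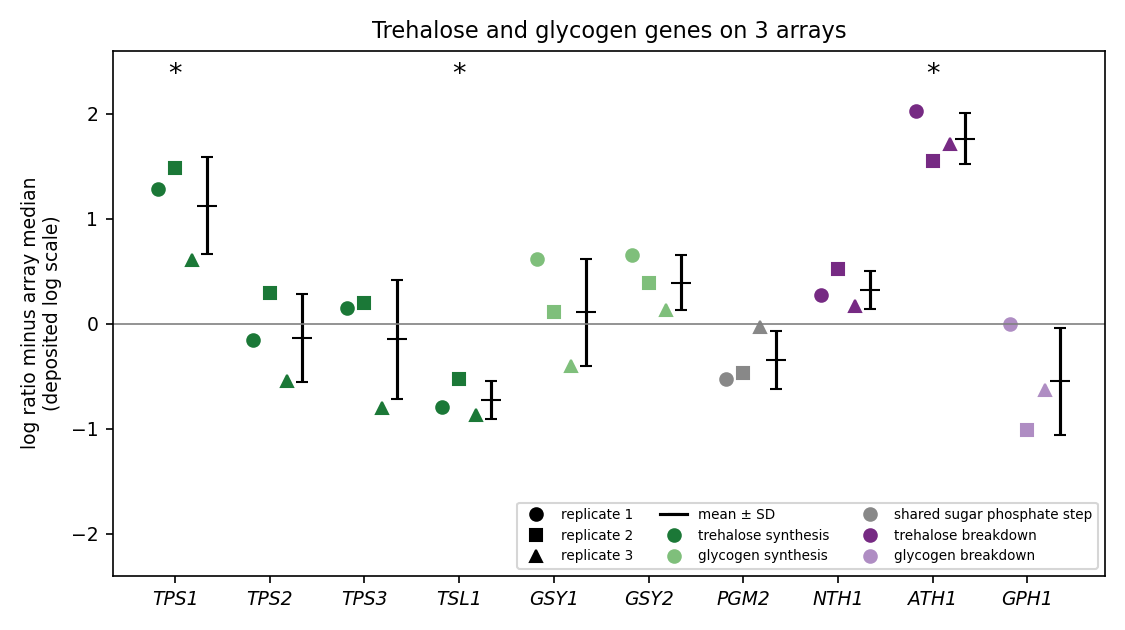
Log ratio minus the array median (deposited log scale) of the 10 genes on each array, with symbols for replicates 1 to 3, colours for the role of the gene, and black bars for the mean ± SD (n = 3). Stars mark genes past an adjusted p of 0.05. ATH1 lies between 1.55 and 2.02 on all arrays and TSL1 between −0.87 and −0.52.

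TPS1 (YBR126C), the catalytic subunit that makes trehalose phosphate, lay at 1.28, 1.49 and 0.61 on replicates 1, 2 and 3. It was on the high side of all arrays, lowest on replicate 3, with a mean of 1.12 ± 0.46 (SD, n = 3; limma adjusted p = 0.0037) and at the 92.9th percentile of all genes. Its repeated spots gave almost the same value, 1.33 and 1.23 on replicate 1, 1.48 and 1.49 on replicate 2, and 0.61 on both spots of replicate 3. The SD between these spots averaged 0.026, smaller than in all but 0.253% of the genes. Genes with little scatter between their spots tended to lie high: the 554 genes with the smallest scatter, TPS1 among them, had a median of 0.60, and 44.9% of them passed on the high side. With the trend over this scatter removed, an alternative added once the values were known, TPS1 lay at 0.45 and did not pass (adjusted p = 0.159).

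TSL1 (YML100W), a large regulatory subunit of the same complex, lay at −0.79, −0.52 and −0.87. All arrays put it on the low side. Its mean was −0.73 ± 0.18 (SD, n = 3; limma adjusted p = 0.0286), at the 10.8th percentile. On replicate 2 its spots differed, at −0.14 and −0.91. The call was lost when any 1 array was left out: the adjusted p was 0.0672 without replicate 1, 0.0672 without replicate 2 and 0.164 without replicate 3. Its mean also lay within the range (−1.90 to 0.39, median −1.05) of 192 spot pairs at fixed block positions that carry no gene symbol. So did the means of 6 further members. ATH1 and TPS1 lay above that range, and GSY2, at 0.39, just above its upper end. These pairs came from 8 of the 12 positions without a symbol in any block, kept because their values were low. The range and its median partly follow from that choice, so a place within or above it is description only.

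TPS2 (YDR074W), the trehalose phosphate phosphatase, lay at −0.15, 0.29 and −0.54, with a mean of −0.13 and a 95% interval from −0.65 to 0.38. TPS3 (YMR261C), the paralog of TSL1, lay at 0.15, 0.20 and −0.80, with a mean of −0.15 and an interval from −0.69 to 0.39. Neither passed (limma adjusted p = 0.707 and 0.687), and both changed side between arrays, with the lowest value on replicate 3.

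Within the synthase complex, TPS1 stood above the other genes on each array, while TPS2 and TPS3 changed order between arrays. Differences between genes on the same array do not depend on the median that was subtracted. TPS1 exceeded TPS2 by 1.43, 1.19 and 1.15 on replicates 1, 2 and 3, a mean difference of 1.26 ± 0.15 (SD, n = 3). It exceeded TPS3 by 1.13, 1.29 and 1.41 (1.27 ± 0.14) and TSL1 by 2.07, 2.01 and 1.47 (1.85 ± 0.33). Each of these differences had the same sign on all arrays and was at least 5.62 times its SD. The pairs were picked after the values were seen, so sign and size follow in part from that choice. The ratio to the SD moved with the processing. For TPS3 it was 3.43 with quantile normalization and 11.0 with the last spot only, and for TSL1 17.5 and 3.48. With the trend over spot scatter removed the differences were smaller, at 0.77 ± 0.19 for TPS2, 0.76 ± 0.30 for TPS3 and 1.21 ± 0.15 for TSL1. They stayed above 0 on all arrays, and that for TPS3 was 2.49 times its SD. With 3 arrays an exact sign-flip test cannot go below p = 0.25, so no p is given for them. TSL1 lay below TPS3 by a mean of −0.58 ± 0.45, but by only −0.07 on replicate 3.

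ATH1 (YPR026W), the acid trehalase that lets yeast use trehalose from outside the cell, was the farthest from the median of the 10 genes. It lay at 2.02, 1.55 and 1.71. The mean was 1.76 ± 0.24 (SD, n = 3; limma adjusted p = 5.63e-05), at the 97.3rd percentile. Its spots agreed in side on every array, from 1.32 to 2.07. It passed on the high side in all 11 other settings that kept the array median, a trend or a block median as zero, with means from 1.46 to 1.87. As deposited, with no median subtracted, it lay at −0.24 and did not pass (adjusted p = 0.461).

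NTH1 (YDR001C), the neutral trehalase of the cytosol, lay at 0.27, 0.52 and 0.17, above the median on all arrays by a small amount. Its mean of 0.32 ± 0.18 (SD, n = 3) did not pass (limma adjusted p = 0.310), with an interval from −0.17 to 0.81. ATH1 exceeded NTH1 by 1.75, 1.03 and 1.54 (1.44 ± 0.37, SD, n = 3). NTH2, the paralog of NTH1, lay at 0.20, −0.28 and −0.77 and did not pass (mean −0.28 ± 0.49), and ATH1 exceeded it by 2.05 ± 0.38. The high position among the trehalase genes was therefore that of ATH1, while the neutral trehalases lay within 1 unit of the median on every array.

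**Figure D2:**
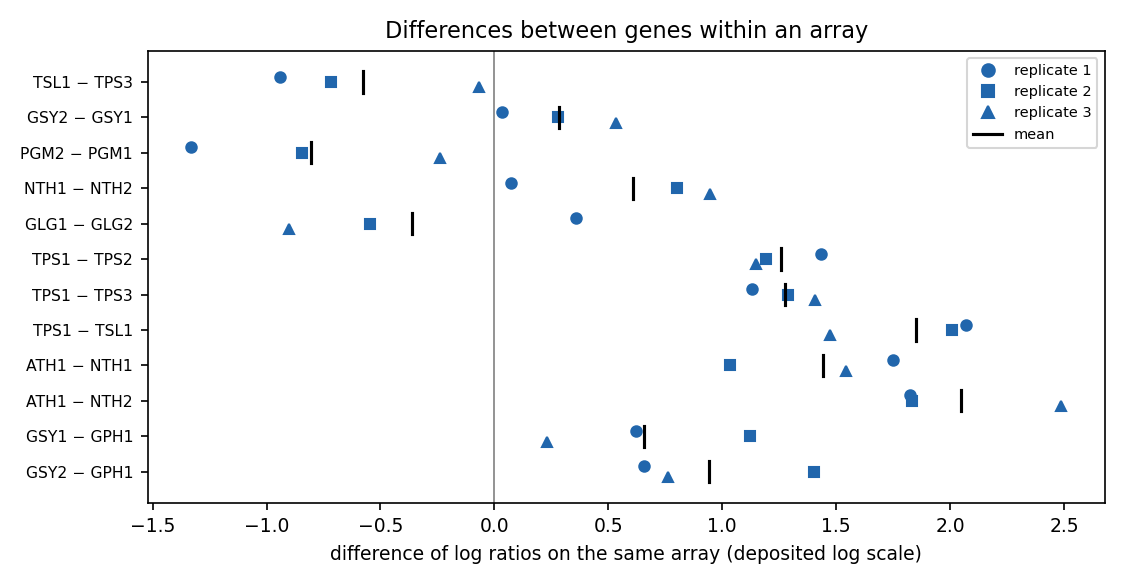
Differences between the log ratios of named gene pairs on the same array (deposited log scale), with symbols for replicates 1 to 3 and a black bar for the mean. TPS1 lies above TPS2, TPS3 and TSL1 on all arrays, and ATH1 above NTH1 and NTH2. The difference between GLG1 and GLG2 changes sign.

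Among the glycogen genes GSY1, GSY2 and GPH1, none passed. GSY1 (YFR015C), the minor glycogen synthase, lay at 0.62, 0.11 and −0.40, so its side changed between arrays (mean 0.11 ± 0.51, SD, n = 3; limma adjusted p = 0.769). GSY2 (YLR258W), the predominant synthase, lay at 0.65, 0.39 and 0.13, on the high side of all arrays but not past the threshold (mean 0.39 ± 0.26; adjusted p = 0.220). GSY2 exceeded GSY1 by 0.04, 0.28 and 0.53, a mean difference of 0.28 against an SD of 0.25. GPH1 (YPR160W), glycogen phosphorylase, lay at −0.0014, −1.01 and −0.63. Replicate 1 put it at the median and the other arrays on the low side, with a mean of −0.55 ± 0.51 (SD, n = 3; adjusted p = 0.112) and an interval from −1.08 to −0.016. Without replicate 1 it passed on the low side at −0.82 (adjusted p = 0.0263).

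PGM2 (YMR105C), the main phosphoglucomutase, interconverts the glucose phosphates used by both pathways and was counted in neither class. It lay at −0.53, −0.47 and −0.03, which gave a mean of −0.34 ± 0.28 (SD, n = 3; limma adjusted p = 0.287). Its paralog PGM1 lay at 0.80, 0.37 and 0.21 (mean 0.46 ± 0.30; adjusted p = 0.154). PGM2 was below PGM1 on every array, by a mean of −0.80 ± 0.55, with −1.33 on replicate 1 and −0.24 on replicate 3. This order turned on replicate 3 with block medians (0.14), the first spot only (0.12) and the scatter trend removed (0.12). The mean differences there were −0.33 ± 0.53, −0.58 ± 0.64 and −0.21 ± 0.42. With quantile normalization (mean −0.76) and the last spot only (mean −1.02) PGM2 stayed below PGM1 on all arrays. Paralogs share sequence, and a spot can take up RNA of the partner gene, so single values of GSY1 and GSY2, PGM1 and PGM2, NTH1 and NTH2, and TPS3 and TSL1 are uncertain.

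In the order of the means, ATH1 was followed by TPS1, GSY2, NTH1, GSY1, TPS2, TPS3, PGM2, GPH1 and TSL1. ATH1 exceeded TPS1 on all arrays, by 0.74, 0.06 and 1.11, and TPS1 exceeded GSY2 on all arrays, by 0.63, 1.10 and 0.48. On replicate 2 the order of ATH1 and TPS1 depended on the processing. ATH1 minus TPS1 was −0.05 there with block medians and −0.16 with the first spot only. It was 0.29 with the last spot only and 0.55 with the scatter trend removed. From GSY2 down to TSL1, each neighbouring pair differed by less than the SD of its difference and changed order between arrays.

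**Figure D3:**
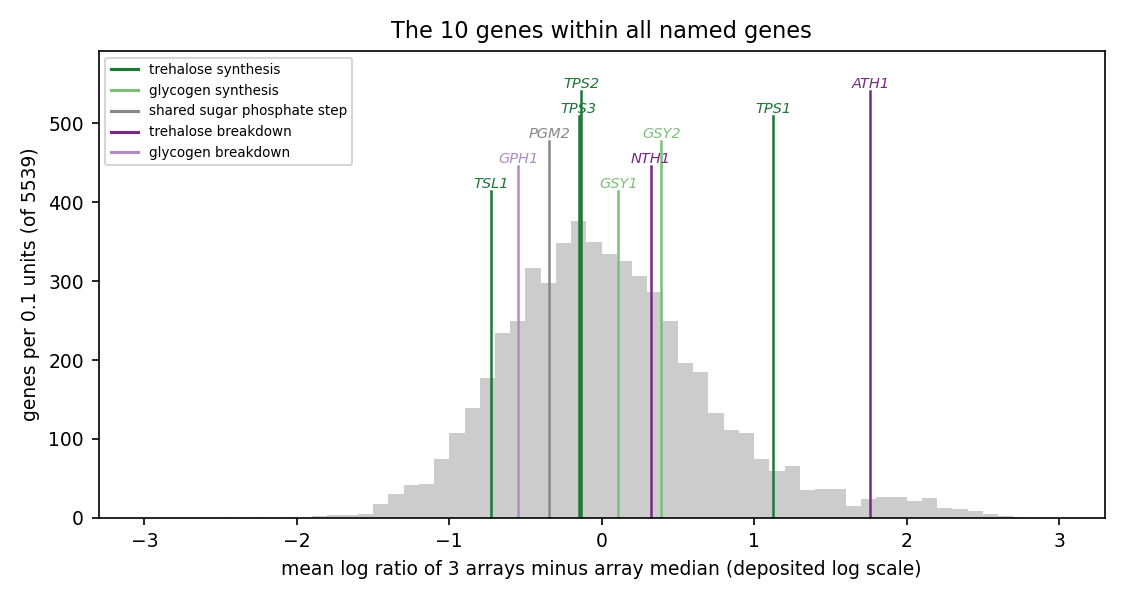
Histogram of the mean log ratio of 3 arrays minus the array median (deposited log scale) for 5539 named genes, in steps of 0.1 units, with lines for the 10 genes coloured by role. ATH1 (97.3rd percentile) and TPS1 (92.9th) lie toward the right end and TSL1 (10.8th) toward the left, with the other genes between them.

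Synthesis and breakdown genes were compared on each array as the median of 6 genes (TPS1, TPS2, TPS3, TSL1, GSY1 and GSY2) and of 3 genes (NTH1, ATH1 and GPH1). The synthesis median was 0.39, 0.25 and −0.47 and the breakdown median 0.27, 0.52 and 0.17 on replicates 1, 2 and 3. Synthesis minus breakdown was 0.11, −0.27 and −0.65, a mean of −0.27 ± 0.38 (SD, n = 3), so by medians the order of the classes changed between arrays. By class means in place of medians it was −0.47, −0.03 and −0.73 (−0.41 ± 0.36), with synthesis lower on all arrays. The breakdown mean (0.77, 0.35 and 0.42) is of 3 genes and draws on ATH1, at 2.02, 1.55 and 1.71. GPH1 lay below the synthesis mean (0.29, 0.33 and −0.31) on every array, and NTH1 lay below it on replicate 1 only. Class means without ATH1 were not computed. The values of the classes overlapped on every array, since TPS1 and ATH1 lay high, TSL1 low, and GPH1 at the median or below it.

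The reserves taken apart gave opposite signs. For trehalose, synthesis minus breakdown was −1.15, −0.79 and −1.61 (mean −1.18 ± 0.41, SD, n = 3), and for glycogen 0.64, 1.26 and 0.50 (0.80 ± 0.41). These differences keep their sign on all arrays but rest on few genes: NTH1 alone exceeded the trehalose synthesis median by 0.46 ± 0.33, and ATH1 by 1.90 ± 0.55. The split by reserve is a description of 6 and 3 genes, with no test.

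Replicate 3 differed from the others for the synthesis genes. All 6 of them had their lowest value there, against 34.4% of all genes, while 2 of the 3 breakdown genes were lowest on replicate 2. This pattern was seen in the values and has no test.

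**Figure D4:**
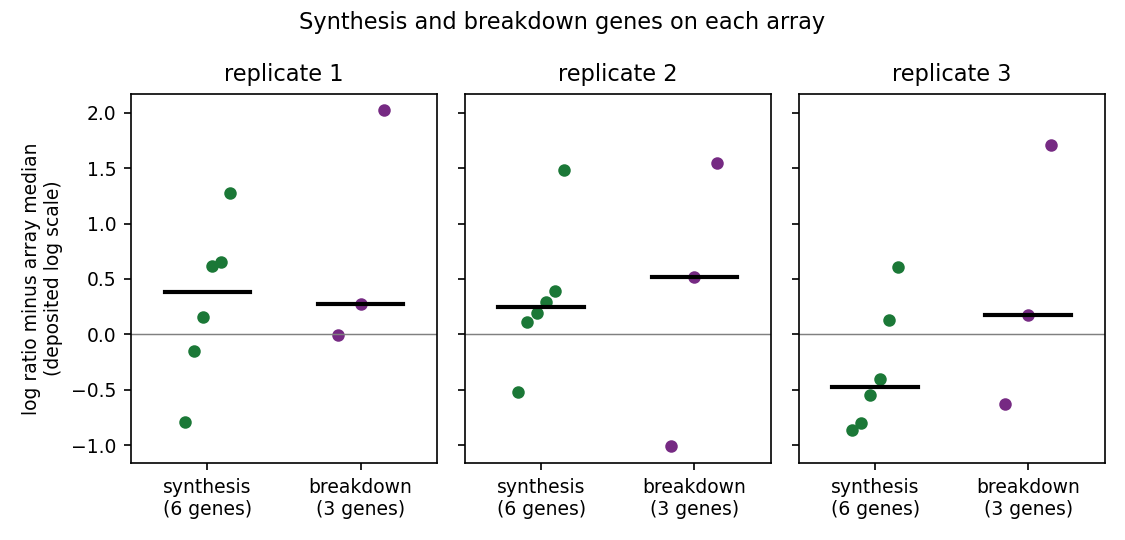
Log ratio minus the array median (deposited log scale) of the 6 synthesis and 3 breakdown genes, 1 panel for each array, with a point for each gene and a black bar for the class median. The classes overlap on every array, and the synthesis median is 0.39 and 0.25 on replicates 1 and 2 and −0.47 on replicate 3.

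The other genes of the pathway examined here numbered 32. Of these, 1 passed high and 3 low, or 12.5%, where 28.5% of all genes passed, and the list median was −0.06. The glycogen enzymes outside the main set went to the low side where they passed. GDB1, the debranching enzyme that works with phosphorylase, lay at −0.96, −1.36 and −0.40 (mean −0.91 ± 0.48, SD, n = 3; limma adjusted p = 0.0139). SGA1, the glucoamylase of sporulating cells, lay at −1.02, −0.83 and −0.21 (mean −0.69 ± 0.42; adjusted p = 0.0453). The branching enzyme gene GLC3 (0.37 ± 0.14), the glycogenin genes GLG1 (−0.44 ± 0.41) and GLG2 (−0.08 ± 0.34), and UGP1 (0.25 ± 0.30), which makes UDP-glucose, did not pass. GDB1 and SGA1 had large spot scatter (0.463 and 0.475, against a median of 0.274 over all genes), and with the scatter trend removed both failed to pass (adjusted p = 0.0860 and 0.255). GLG1 passed there on the low side, at −0.88 (adjusted p = 0.0279). SGA1 also failed when any 1 array was left out, with block medians (−0.36, adjusted p = 0.248), with either spot alone (adjusted p = 0.151 and 0.0590) and with the spots kept apart (adjusted p = 0.0552). GDB1 failed without replicate 2 (adjusted p = 0.154) or replicate 3 (adjusted p = 0.0680) and with the last spot only (−0.63, adjusted p = 0.115).

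Regulators of glycogen synthase held the remaining calls. PCL8, a cyclin of the Pho85 kinase that phosphorylates glycogen synthase, lay at 0.91, 2.11 and 1.84, on the high side of all arrays (mean 1.62 ± 0.63, SD, n = 3; limma adjusted p = 4.02e-04). Its paralog PCL10 did not pass, at 0.48 ± 0.23, and PCL8 exceeded it by 0.27, 1.89 and 1.26. With block medians PCL8 lay below PCL10 on replicate 1 (−0.21), and the mean difference was 0.92 ± 1.00. In the other settings with differences it stayed above PCL10 on all arrays. As for the other paralogs, a spot can take up RNA of the partner gene. GLC8, an activating subunit of the Glc7 phosphatase, which acts against that kinase, lay at −0.77, −1.18 and −0.77, on the low side of all arrays (mean −0.91 ± 0.24; adjusted p = 0.0095). PCL8 failed to pass without replicate 3 (adjusted p = 0.0732), and GLC8 without replicate 2 (adjusted p = 0.0938) or replicate 3 (adjusted p = 0.0902). With the scatter trend removed GLC8 lay farther out, at −1.51 (adjusted p = 0.0024). The means of GLC8, GDB1 and SGA1 lay within the range of the low-lying spot pairs without a symbol (−1.90 to 0.39). That of PCL8 lay above it. None of the 5 sugar phosphate supply genes, 4 trehalase regulators or 6 genes of protein kinase A, Snf1 and Msn2/Msn4 passed in limma. At an unadjusted p under 0.05 there were 1, 2 and 1 of them, where 40.8% of all genes lay under it, namely HXK1 (0.61), BMH1 (0.68) and BMH2 (0.61), and SNF1 (0.57), named after their values were seen. The supply genes all had means above 0 (0.12 to 0.61), as did 2720 of all 5539 genes. Only 2 of these 5 stayed on the same side on all arrays, or 40%, against 58.9% of all genes.

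**Figure D5:**
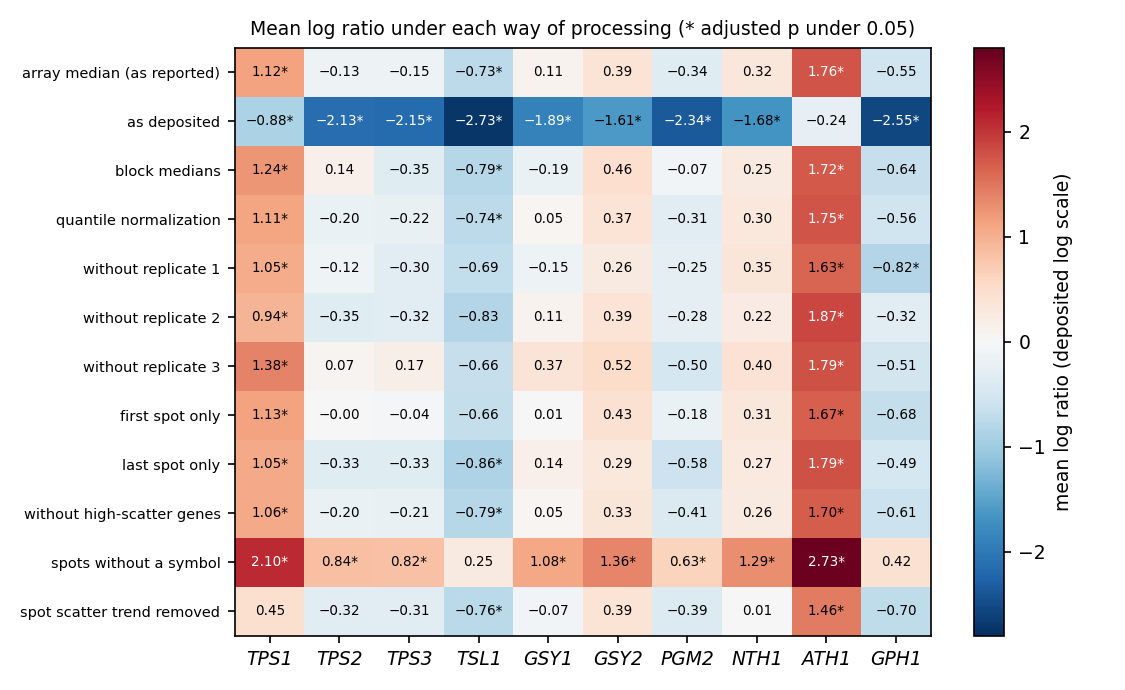
Mean log ratio (deposited log scale, colour and number) of the 10 genes under each way of processing, with a star for an adjusted p under 0.05. ATH1 stays above 0 and starred in every row but that of the values as deposited, where 9 genes are starred below 0. Against the spots without a symbol, at positions kept for their low values, 8 genes are starred above 0.

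The side of a gene rests on what is taken as zero. As deposited, all 10 means lay below 0, and 9 of the 10 genes passed there. Set against the median of the low-lying spots without a symbol, all 10 means lay above 0 and 8 passed. That zero was chosen after the data were seen, from 384 spots at 8 positions kept because their values were low. Means above it therefore follow in part from how it was picked. A zero that is the same for all genes of an array changes neither the order of the genes nor their differences. Block medians and the scatter trend differ between genes and can change both. With block medians TPS2 (0.14) lay above GSY1 (−0.19), the reverse of their order in the main setting. The mean of PGM2 minus PGM1 went from −0.80 to −0.33 with block medians and −0.21 with the scatter trend removed.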

How the data were processed

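Total RNA of the strains was compared on 3 two-colour arrays. The authors' deposited table gives 1 log ratio per spot, treated here as log2; its base, numerator, normalization, image software and spot intensities are not given in the sources used here. Of 13056 spots, 11138 had 1 gene symbol in the platform annotation, 0 had several and 1918 had none; 5534 of 5539 genes matched the RefSeq gene table (R64), used for locus names only. Spots of a gene were averaged and each array's median over genes was subtracted. In limma 3.58.1 (R 4.3.3), lmFit and eBayes gave a two-sided test of the mean over arrays against 0. P-values were adjusted by Benjamini-Hochberg over 5539 genes, with a threshold of 0.05; intervals are limma's at 95%. Arrays give no counts, so their number limits the precision.

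The members and the pathway list were chosen with earlier results of these data known. Named genes are all members, list genes that passed, and NTH2, PGM1, GLG1, GLG2, GLC3, GDB1, UGP1 and YAP1; PCL10, HXK1, BMH1, BMH2 and SNF1 were added after their values were seen. Gene differences were picked after the values were seen. Alternatives covered the centring, printing blocks, quantile normalization, spots, scatter, variance model, threshold and each array left out. The spots without a symbol used as zero were 384 spots at 8 of 12 never-named block positions, kept for their low values. Sequences and coordinates were not used here.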

Additional observations from a re-analysis of the deposited data

How the results depend on the processing

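The number of members past the threshold, 2 high and 1 low, rested on the zero: it was 0 high and 9 low as deposited, and 8 high and 0 low against the spots without a symbol. With the scatter trend removed, 1 member passed high. The low count was 0 with the first spot only and at an adjusted p of 0.01, and ranged from 0 to 1 with 1 array left out; without replicate 1 the low member was GPH1 in place of TSL1. Over all genes, 886 high and 695 low became 2 and 5258 as deposited and 3973 and 11 against the spots without a symbol. There were 542 high and 260 low genes at an adjusted p of 0.01 and 413 low with the first spot only. With 1 array left out, 275 to 826 were high and 48 to 617 low. Synthesis minus breakdown (−0.27) was −1.18 for trehalose genes only and 0.80 for glycogen genes only, each taken from fewer genes. It was −0.08 without replicate 3, −0.46 without replicate 1, −0.13 with the scatter trend removed and −0.41 by class means.

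As deposited, sides turned for TPS1 (−0.88), GSY1 (−1.89), GSY2 (−1.61), NTH1 (−1.68), ATH1 (−0.24), GLC3 (−1.63), PGM1 (−1.54), UGP1 (−1.75), PCL8 (−0.38), PCL10 (−1.52), HXK1 (−1.39), BMH1 (−1.32), BMH2 (−1.39) and SNF1 (−1.43). Against the spots without a symbol they turned for TPS2 (0.84), TPS3 (0.82), TSL1 (0.25), PGM2 (0.63), GPH1 (0.42), NTH2 (0.69), GLG1 (0.53), GLG2 (0.89), GDB1 (0.065), SGA1 (0.28) and GLC8 (0.064). Both follow from the shift of zero. Genes that had not passed also turned with block medians (TPS2 0.14, GSY1 −0.19) and with the scatter trend removed (GSY1 −0.068, GLG2 0.18, PGM1 −0.19); the cause was not tested. With 1 array left out, TPS2 ran from −0.35 to 0.072, TPS3 from −0.32 to 0.17, GSY1 from −0.15 to 0.37 and GLG2 from −0.28 to 0.046. Quantile normalization and leaving out the tenth of genes with most scatter changed no side or call of the 25 named genes other than YAP1. Robust eBayes changed 1, BMH1, which passed (adjusted p = 0.0438); with the spots kept apart BMH1 (0.0336) and HXK1 (0.0493) passed. Spot brightness was not analysed here, so weak signal as a limit cannot be judged.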
